A study of Mus musculus with 18 samples.

Results

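Gene and transcript levels in the dental epithelium of double knockout mouse molars at embryonic day 17 (E17) were compared with those of wild type. The comparison rests on 6 of the 18 libraries of the series, 3 labelled DKO with the genotype Hmgn1-/-; Hmgn2-/- and 3 labelled WT, all from molar epithelium of E17 tooth germs. Sheets of epithelium were freed from the mesenchyme with dispase, and total RNA was depleted of ribosomal RNA (rRNA) before library construction. The sources used here do not give the alleles, the strain or the number of animals behind a library, nor do they state whether replicates were separate animals. The p-values therefore rest on the differences among these libraries, which could be technical. Libraries are called double knockout as labelled, and DKO1 to DKO3 and WT1 to WT3 name the replicates where a library was left out. Every gene with a summed level of at least 1 RPKM in at least 3 of the 6 libraries was tested, 13728 of the 32532 gene symbols in the table. The 3 double knockout and 3 wild-type libraries of postnatal day 5 (P5) are used at the end.

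HMGN1 and HMGN2 are small nuclear proteins that bind nucleosomes and compete with linker histones, which keeps chromatin more open. At E17 the molar epithelium is at the bell stage: its inner layer will become ameloblasts, the cells that deposit enamel, and signals of the Hedgehog, Wnt, BMP, FGF, ectodysplasin and retinoic acid pathways pattern it together with the mesenchyme below. The account below gives the transcripts and the gene groups beneath the top-ranked changes.

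Levels are RPKM, reads on a transcript scaled by its length and by the mapped reads of the library. The libraries had 71800418 to 99967427 alignments in the double knockout and 65953495 to 93206014 in wild type, and 1 read on a transcript of 1 kb was worth 0.0242 to 0.0361 RPKM. Fold changes are on the log2(RPKM + 1) scale, double knockout over wild type, with their standard error from limma and Benjamini-Hochberg adjusted p. Each gene was fitted on the deposited values and again after bringing the upper quartiles of the libraries to a common value ("scaled" below), and it is said to have risen or fallen where adjusted p was under 0.05 in the same direction in both fits. By this rule 908 genes rose (6.61% of those tested) and 422 fell (3.07%). The median log2 fold change of all genes tested was 0.25 on deposited and -0.00 on scaled values, and the 2 groups did not overlap for 64.7% of genes, so a gap between groups alone is not a result about a gene. The call held with each of the 6 libraries left out in turn for 296 of the genes that rose and 214 of those that fell. Without DKO3 324 genes rose and 245 fell, without WT3 396 rose and 234 fell, and without DKO1 586 rose.

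The targeted genes were examined transcript by transcript. Hmgn2-203, the main Hmgn2 transcript (1265 bases, chr4:133964738-133968001, mm10), had 0.839, 0.897 and 0.900 RPKM in the double knockout, against 342, 331 and 307 RPKM in wild type. Over all its transcripts Hmgn2 fell by 7.47 on the log2 scale (-7.47 ± 0.07, adjusted p = 3.59e-11, scaled -7.68). The other Hmgn2 transcripts that were tested, Hmgn2-201, Hmgn2-207, Hmgn2-208 and Hmgn2-212, were at or close to 0 in all 3 double knockout libraries. Hmgn1-201, which carried most of the Hmgn1 signal, had 83.0, 86.8 and 86.7 RPKM in the double knockout, against 128, 123 and 118 RPKM in wild type (log2 fold change of the gene -0.50 ± 0.07, adjusted p = 0.00136, scaled -0.79). It made up 94.4% ± 1.62 of Hmgn1 in the double knockout and 95.6% ± 0.5004 in wild type (SD, n = 3 each), a share that did not pass (adjusted p = 0.375). Reads across Hmgn1 therefore do not check that label, since the deleted part is not described.

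The 2 genotypes differed in where reads fell before any single gene is considered. Reads on annotated transcripts other than rRNA were 81.1%, 88.6% and 88.4% of mapped reads in the double knockout, against 74.9%, 73.0% and 71.9% in wild type. On a log2 scale the ratio of the means was 0.23, close to the 0.25 by which the median gene moved on deposited values. Reads on rRNA transcripts were 5.54%, 0.977% and 1.66% in the double knockout, against 7.44%, 7.52% and 7.00% in wild type. Neither quantity overlapped between genotypes (exact permutation test over libraries, two-sided, p = 0.1 for each, the smallest that 3 against 3 allows). Reads on all annotated transcripts, rRNA included, were 86.6%, 89.6% and 90.1% of mapped reads in the double knockout, against 82.3%, 80.5% and 78.9% in wild type. Mapped reads outside annotated transcripts were therefore also fewer in the double knockout. DKO1 kept the most rRNA of its group. The gene Lars2, which encodes mitochondrial leucyl-tRNA synthetase, followed the same order within the double knockout, with 935, 152 and 246 RPKM there and 1284, 1361 and 1399 RPKM in wild type (-2.04 ± 0.53, adjusted p = 0.0108, scaled -2.33). Its call did not hold with any library but DKO1 left out (largest adjusted p = 0.127). Both mitochondrial rRNA genes fell as well. mt-Rnr1 had 1163, 872 and 1032 RPKM in the double knockout, against 1567, 1548 and 1453 RPKM in wild type (-0.58 ± 0.12, adjusted p = 0.00417, scaled -0.87). The call of mt-Rnr2 did not hold with any library but DKO1 left out (-0.32 ± 0.11, adjusted p = 0.0360, largest without a library 0.180). The part of rRNA depletion in the differences between genes was not tested.

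Most transcripts that keep an intron had a lower fitted share of their gene in the double knockout, while the summed level of the class did not separate the genotypes. GENCODE labels a transcript "retained intron" where it holds intronic sequence of the coding transcripts of its gene, and such transcripts are often nuclear or unfinished RNA. Of 2188 retained-intron transcripts with at least 1 RPKM in 3 libraries, 101 fell and 20 rose when each transcript was fitted as its own feature, whereas of 18390 protein-coding transcripts 251 fell and 501 rose. Over all 23652 transcripts 1.88% fell and 2.42% rose. Shares were fitted on deposited values as log2 of a transcript over the rest of its gene, each plus 1 RPKM. By the sign of this fit, 1727 of 2080 retained-intron transcripts (83.0%) were lower in the double knockout, against 46.6% of 10817 protein-coding transcripts. Deposited values were higher in the double knockout for the median gene, and the added 1 RPKM then lowers this ratio for low transcripts. Its part in these counts was not tested. Their part of the summed RPKM without rRNA was 2.23%, 2.50% and 2.39% in the double knockout, against 2.58%, 2.85% and 2.92% in wild type, without overlap. The class was also read as a percent of reads on annotated transcripts, rRNA included. It had 1.84%, 2.19% and 2.03% in the double knockout, against 2.15%, 2.32% and 2.42% in wild type, with overlap. A larger rRNA part lowers this percent, and that part was larger in every wild-type library. This overlap therefore cannot tell whether the class separated the genotypes among reads other than rRNA. The summed level of the class was 10240, 12760 and 12170 RPKM in the double knockout, against 11050, 11280 and 11470 RPKM in wild type, and there too the groups overlapped. The median log2 fold change of these transcripts was -0.03 (scaled -0.21). This class and the fit of single transcripts were chosen after the values were seen, so no test is given for the class. With a library left out, 16 to 76 retained-intron transcripts fell (16 without DKO3, 25 without WT3, 40 without WT2, 43 without DKO1). The percent with a lower fitted share stayed between 81.2% and 82.9%.

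**Figure D1:**
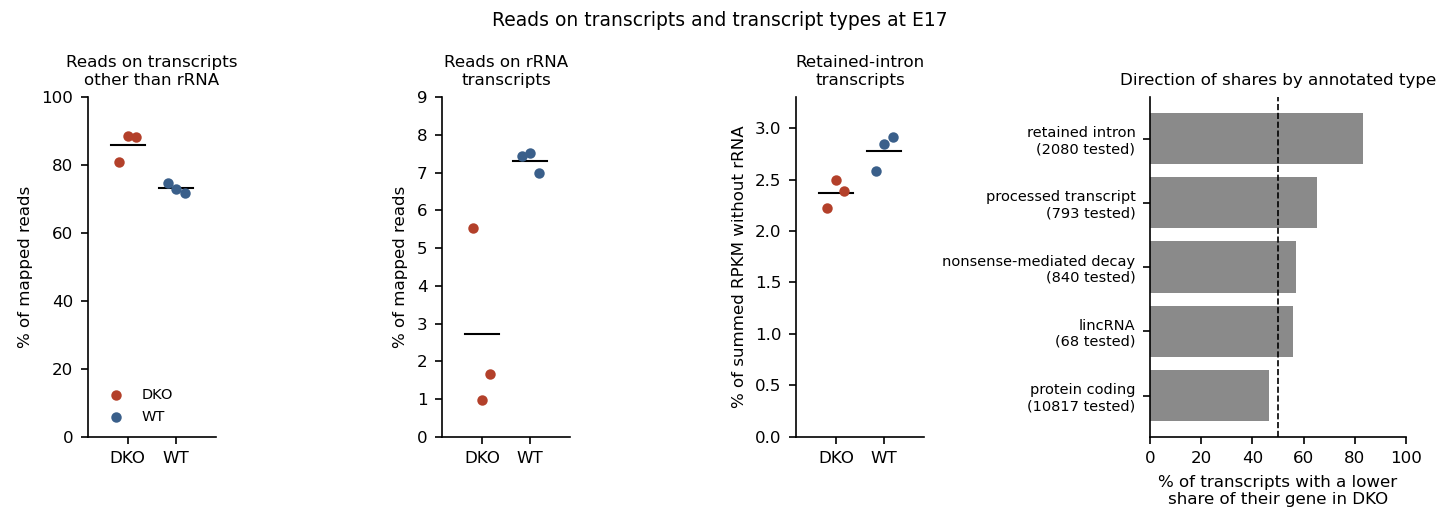
Percent of mapped reads on transcripts other than rRNA and on rRNA transcripts, retained-intron transcripts as a percent of the summed RPKM without rRNA (points are libraries, lines means, n = 3 each), and the percent of transcripts of each annotated type whose fitted share of their gene was lower in the double knockout. The fitted share is log2 of a transcript over the rest of its gene, each plus 1 RPKM. The double knockout libraries sit above wild type for reads on other transcripts and below it for rRNA and for the retained-intron percent of summed RPKM, and 83.0% of retained-intron transcripts lie on the lower side.

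Most of these falls were in genes that were not themselves called, 80 of the 101. The following examples were chosen after their values were seen. The retained-intron transcript Srsf11-213 of an SR-type splicing factor had 6.34, 8.43 and 7.03 RPKM in the double knockout, against 10.5, 12.3 and 10.6 RPKM in wild type (-0.56, adjusted p = 0.0104, scaled -0.82). U2af2-206, from the gene of a subunit that recognises the 3′ splice site, had 1.68, 2.52 and 2.58 RPKM in the double knockout and 4.17, 3.42 and 4.17 RPKM in wild type (-0.60, adjusted p = 0.0160, scaled -0.82). Ddx3x-203, from an X-linked RNA helicase gene, had 0.662, 0.710 and 0.839 RPKM in the double knockout and 1.93, 1.71 and 1.61 RPKM in wild type (-0.66, adjusted p = 0.00750, scaled -0.82). In each of these the groups did not overlap, while the gene as a whole was not called. Rsrp1, which encodes a protein rich in arginine and serine, showed both sides of such a shift: its coding transcript Rsrp1-201 made up 44.7%, 41.4% and 42.9% of the gene in the double knockout and 24.7%, 22.3% and 24.9% in wild type. The retained-intron transcript Rsrp1-204 made up 50.6%, 54.6% and 51.7% in the double knockout and 68.2%, 71.3% and 66.4% in wild type. Neither share passed (adjusted p = 0.0504 and 0.0750).

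The formal test of shares, over 14917 transcripts of 5077 genes, called 1 transcript in each direction (0.0067% each), while 2735 had an unadjusted p under 0.05. Dnmt3a encodes a de novo DNA methyltransferase. Its transcript Dnmt3a-205, which starts inside the gene (chr12:3891728-3907842), made up 10.9%, 12.4% and 11.3% of Dnmt3a in the double knockout, against 0.136%, 1.74% and 0.847% in wild type (log2 of the share ratio 1.44 ± 0.13, adjusted p = 0.0241). The level of this transcript was 1.98, 2.78 and 2.45 RPKM in the double knockout, against 0.0219, 0.318 and 0.142 RPKM in wild type, while the longest form Dnmt3a-201 averaged 12.03 ± 0.981 RPKM in the double knockout and 11.3 ± 0.515 RPKM in wild type. Krtdap encodes a secreted protein of differentiating keratinocytes. Its transcript Krtdap-203 made up 16.5% ± 0.554 of the gene in the double knockout, against 33.6% ± 1.06 in wild type (SD, n = 3 each, log2 of the share ratio -1.34 ± 0.12, adjusted p = 0.0241). The level of Krtdap-203 itself was 43.2, 21.1 and 41.5 RPKM in the double knockout and 37.2, 27.9 and 36.1 RPKM in wild type, beside Krtdap-201, at 181, 84.7 and 160 RPKM in the double knockout, with 60.7, 41.2 and 52.3 RPKM in wild type; neither level was called. Both share calls were lost with any 1 library left out (adjusted p 0.0822 to 0.229).

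In 6 genes, transcripts were called in both directions when fitted singly, 13 transcripts in all. Fgfr1 encodes a receptor of fibroblast growth factors: its coding transcript Fgfr1-213 had 12.9, 12.5 and 11.9 RPKM in the double knockout, against 3.37, 4.01 and 4.35 RPKM in wild type (1.46, adjusted p = 0.000603, scaled 1.21). The retained-intron transcript Fgfr1-204 had 0.746, 0.756 and 0.565 RPKM in the double knockout and 1.29, 1.80 and 1.44 RPKM in wild type (-0.57, adjusted p = 0.0148, scaled -0.71). Cdk2ap1 encodes an inhibitor of the kinase CDK2, and Cdk2ap1-201 rose (0.69, scaled 0.41) while the shorter Cdk2ap1-203 fell (-0.95, scaled -1.15). The other genes were Eif4a1, Fxr1, Hnrnpk and Trmt1, which encode a translation initiation helicase, 2 RNA-binding proteins and a tRNA methyltransferase. Of all 1017 transcripts called singly, 769 moved with their called gene, 246 lay in genes that were not called and 2 went against their gene.

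Retinoic acid genes changed in the double knockout, with the enzymes that remove the hormone moving in opposite directions. Retinoic acid is made from retinol by retinol and retinaldehyde dehydrogenases, is bound in the cytoplasm by CRABP proteins, acts through the RAR and RXR nuclear receptors and is broken down by the CYP26 enzymes. Of 19 genes tested, 6 rose and 1 fell, where 6.61% of all genes rose and 3.07% fell. Their median log2 fold change was 0.40 (scaled 0.16). The 2 genes that rose most, Cyp26c1 and Cyp26a1, are neighbours on chromosome 19, with start sites 12128 bases apart and on the same strand. Their promoters are shown because these neighbours moved together; each line is the 250 bases before the RefSeq start site on build GRCm38.p6, plus strand, and capitals mark the units of a direct repeat of AGGTCA or AGTTCA with 5 bases between them, the form that retinoic acid receptors are known to bind.
Cyp26a1 (chr19:37697558-37697807): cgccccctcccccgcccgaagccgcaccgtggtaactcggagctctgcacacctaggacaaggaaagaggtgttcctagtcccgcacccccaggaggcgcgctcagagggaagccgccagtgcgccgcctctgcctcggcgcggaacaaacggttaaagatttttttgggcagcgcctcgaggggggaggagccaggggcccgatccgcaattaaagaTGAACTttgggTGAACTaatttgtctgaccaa
Cyp26c1 (chr19:37685430-37685679): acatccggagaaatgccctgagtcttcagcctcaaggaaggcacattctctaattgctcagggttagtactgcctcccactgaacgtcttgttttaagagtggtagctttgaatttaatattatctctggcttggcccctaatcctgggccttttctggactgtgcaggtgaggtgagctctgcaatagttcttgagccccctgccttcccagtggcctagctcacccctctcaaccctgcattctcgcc
The Cyp26a1 window held 1 such repeat, AGTTCANNNNNAGTTCA read on the minus strand, ending 15 bases before the start site, and the Cyp26c1 window held none of these letters. On both strands, the repeat in any of its forms was found in 11 of 32851 RefSeq windows of this length (0.0335%), and AGTTCANNNNNAGTTCA in 7 (0.0213%). These matches describe the sequence and say nothing of what is bound there.

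Cyp26c1 had 29.1, 33.9 and 31.6 RPKM in the double knockout, against 4.68, 5.64 and 4.90 RPKM in wild type (2.42 ± 0.08, adjusted p = 1.43e-06, scaled 2.16). Cyp26a1 had 16.5, 19.6 and 16.7 RPKM in the double knockout, against 6.24, 6.41 and 5.99 RPKM in wild type (1.36 ± 0.08, adjusted p = 3.10e-05, scaled 1.10). Cyp26b1, on chromosome 6, fell, at 2.70, 2.81 and 2.71 RPKM in the double knockout, against 3.88, 5.20 and 4.61 RPKM in wild type (-0.57 ± 0.09, adjusted p = 0.00228, scaled -0.79). The groups did not overlap for any of the 3 genes, and the 3 calls held with each library left out.

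Of the enzymes of synthesis, Aldh1a3, a retinaldehyde dehydrogenase of craniofacial epithelium, had 24.4, 29.4 and 27.7 RPKM in the double knockout, against 13.0, 15.3 and 12.4 RPKM in wild type (0.95 ± 0.10, adjusted p = 0.000396, scaled 0.68). Aldh1a2, the main such enzyme of embryonic mesenchyme, was at 26.2, 34.9 and 28.8 RPKM in the double knockout, with 19.1, 24.4 and 19.2 RPKM in wild type and did not pass after scaling (scaled 0.22, adjusted p = 0.214). The binding protein gene Crabp1 rose (0.66 ± 0.08, adjusted p = 0.000850, scaled 0.37), as did the retinaldehyde reductase Dhrs3 (0.57, scaled 0.29). Dhrs3 did not pass without DKO3 (adjusted p = 0.0507). None of the 6 RAR and RXR receptor genes was called, with scaled log2 fold changes between -0.30 (Rxrg) and 0.16 (Rarb).

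**Figure D2:**
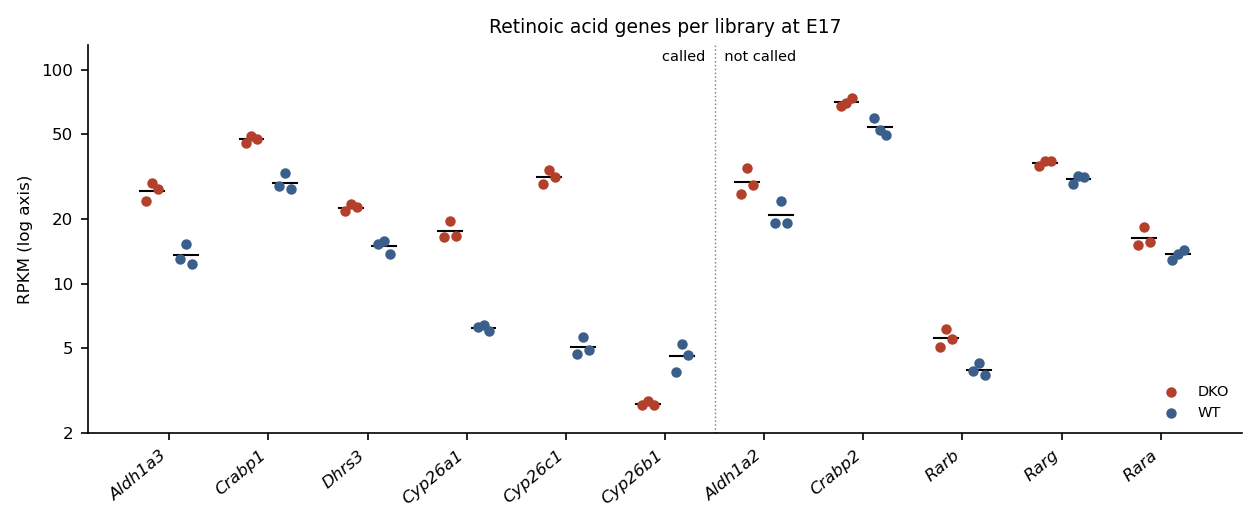
RPKM of 11 retinoic acid genes in each library at E17 (log axis, points are libraries, lines means, double knockout left of wild type within a gene), with 6 called genes to the left of the dotted line and 5 others to the right. Cyp26c1 shows the widest gap, 29.1 to 33.9 RPKM in the double knockout against 4.68 to 5.64 RPKM in wild type, and Cyp26b1 is the called gene that lies lower in the double knockout.

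Imprinted genes, which are expressed from 1 parental allele and many of which act on fetal growth, were lower in a sizeable part. Of 31 imprinted genes tested, 12 fell and 1 rose, where 3.07% of all genes fell and 6.61% rose, and their median log2 fold change was -0.09 (scaled -0.38). With a library left out 10 to 13 fell and 1 rose. The genes of the Dlk1-Meg3 domain on chromosome 12 fell together, although Dlk1 is expressed from the paternal and the others from the maternal allele. Meg3, a long non-coding RNA (chr12:109541001-109571726), had 99.95, 113 and 107 RPKM in the double knockout, against 213, 198 and 218 RPKM in wild type (-0.97 ± 0.08, adjusted p = 0.000144, scaled -1.26). Rian, the next non-coding RNA of the domain, had 142, 112 and 136 RPKM in the double knockout, against 209, 173 and 202 RPKM in wild type (-0.58 ± 0.11, adjusted p = 0.00330, scaled -0.87). Mirg, which hosts a cluster of microRNAs, had 9.23, 9.80 and 9.20 RPKM in the double knockout, against 16.4, 14.1 and 16.6 RPKM in wild type (-0.68 ± 0.08, adjusted p = 0.000670, scaled -0.95). These calls held with each library left out, and of 24 transcripts of the 3 non-coding genes 15 fell and 0 rose when fitted singly. Dlk1, which encodes a transmembrane protein related to Notch ligands, had 191, 144 and 185 RPKM in the double knockout, against 266, 202 and 252 RPKM in wild type (-0.47 ± 0.14, adjusted p = 0.0160, scaled -0.76). Without DKO3 or WT3 Dlk1 was not called (largest adjusted p = 0.0754).

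Others lay on other chromosomes. The zinc-finger genes Zim1 and Peg3 are neighbours on chromosome 7. Zim1 had 6.11, 6.07 and 6.14 RPKM in the double knockout, against 9.87, 10.3 and 10.8 RPKM in wild type (-0.67 ± 0.06, adjusted p = 0.000302, scaled -0.93), and Peg3 fell as well (-0.33, scaled -0.61). Plagl1, a zinc-finger regulator of other imprinted genes, had 40.8, 35.8 and 42.4 RPKM in the double knockout, against 58.7, 55.3 and 60.3 RPKM in wild type (-0.54 ± 0.08, adjusted p = 0.00164, scaled -0.83). Peg10 (-0.90, scaled -1.15), Magel2 (-0.52, scaled -0.65), Asb4 (-0.42, scaled -0.65), Ddc (-0.64, scaled -0.86) and the cell cycle inhibitor Cdkn1c (-0.33, scaled -0.62) fell too. Ddc was not called without DKO2, DKO3 or WT3 (largest adjusted p = 0.0914), and Cdkn1c was not called without DKO2 (adjusted p = 0.0619). Nap1l5, a nucleosome assembly protein gene, was the 1 that rose, with 2.53, 3.12 and 3.28 RPKM in the double knockout, against 1.28, 1.30 and 1.15 RPKM in wild type (0.82, adjusted p = 0.000719, scaled 0.63). The abundant pair H19 and Igf2 was not called: H19 had 2194, 2226 and 2238 RPKM in the double knockout and 2141, 1814 and 2046 RPKM in wild type, and Igf2 616, 624 and 625 RPKM in the double knockout and 595, 578 and 591 RPKM in wild type. Many of these genes are expressed in mesenchyme, and the 18 mesenchyme markers summed to 3083, 3247 and 3285 RPKM in the double knockout, against 4693, 5163 and 4809 RPKM in wild type. Of these markers 2 rose and 5 fell, and their median log2 fold change was 0.01 (scaled -0.28). Most of the gap in the sum lay in Col1a1 and Col1a2: without them it was 1718, 1532 and 1749 RPKM in the double knockout, against 1635, 1798 and 1618 RPKM in wild type, with overlap. Among the 5 falls, those of Col1a1 (-1.15), Col1a2 (-0.94) and Col5a1 (-0.51, all on deposited values) held with each library left out. The 2 rises were Twist2 (0.80, scaled 0.53) and Thy1 (0.90, scaled 0.63), calls kept only without DKO2 or WT2 (largest adjusted p = 0.0982 and 0.120). The part of mesenchyme in the imprinted falls was not tested, and in bulk tissue fewer cells of a type and less RNA per cell cannot be told apart. Members of the list beyond the first 4 by adjusted p were named after their values were seen, here and below.

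**Figure D3:**
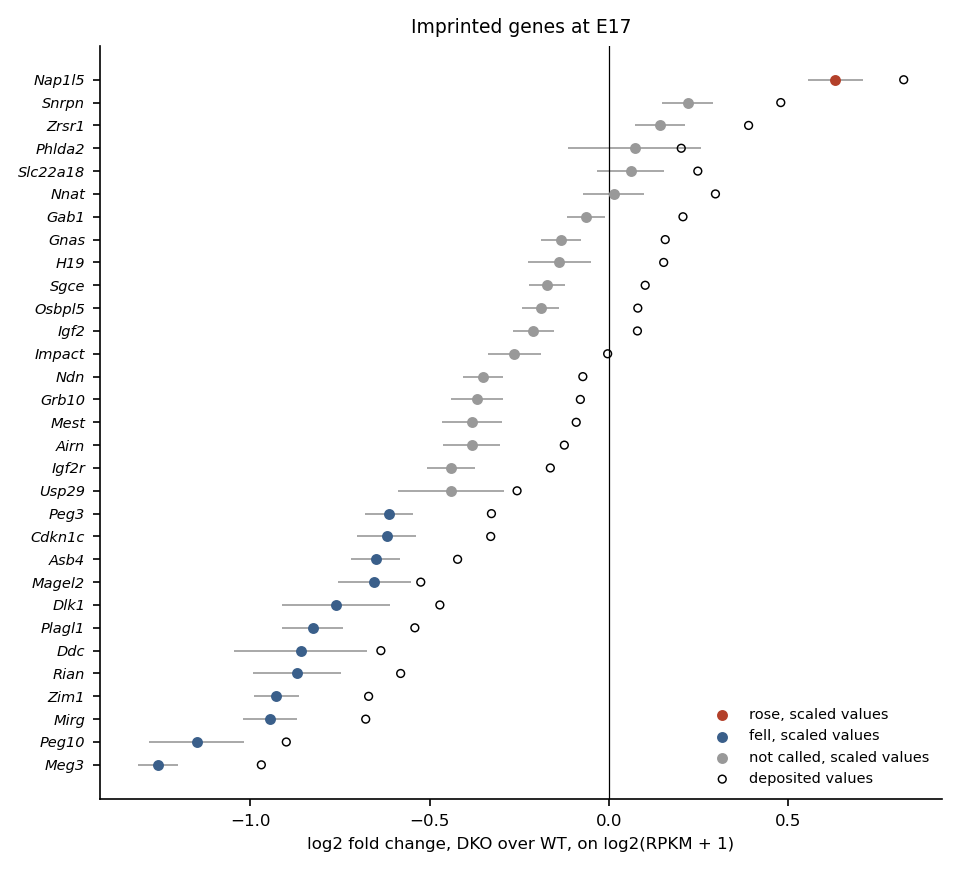
Log2 fold change of the 31 imprinted genes tested, double knockout over wild type, on scaled values (filled, bars are standard errors) and on deposited values (open). The 12 genes that fell lie between -0.61 and -1.26 on scaled values, and Nap1l5 stands at 0.63.

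The epithelial identity of the tissue was read from 18 markers, all of which were tested. They summed to 3670, 3875 and 3873 RPKM in the double knockout, against 3512, 3022 and 3249 RPKM in wild type. Of these markers 5 rose, 1 fell and 12 were not called, where 6.61% of all genes rose and 3.07% fell. Their median log2 fold change was 0.34 (scaled 0.05), beside 0.25 (scaled -0.00) for all genes tested. The marker that fell was the keratin Krt15 (-0.42 on deposited values), a call lost without DKO2, DKO3, WT1 or WT3 (largest adjusted p = 0.109). The mesenchyme markers given above were of the same order in sum, so the libraries did not hold epithelial RNA alone. Epcam, an adhesion molecule of epithelia, had 68.8, 78.1 and 72.2 RPKM in the double knockout, against 44.9, 40.8 and 41.5 RPKM in wild type (0.77, adjusted p = 0.000319, scaled 0.49). Trp63, the transcription factor of stratified epithelia, and the cadherin Cdh3 rose alike (0.76 each, scaled 0.48 and 0.49). The keratin Krt17 rose as well (0.61, scaled 0.32), though not past the threshold without DKO2, DKO3, WT2 or WT3 (largest adjusted p = 0.104). A further 2 calls, both rises, stood among 17 tested genes of a list for amelogenesis imperfecta, a group of inherited enamel defects. Ambn and Sp6, called at E17 and given below, are not in this list. Dlx3, a homeobox gene, had 22.1, 23.0 and 22.1 RPKM in the double knockout, against 10.01, 13.8 and 11.1 RPKM in wild type (0.90 ± 0.10, adjusted p = 0.000683, scaled 0.63). Cldn10, a claudin of the enamel epithelium, rose (0.57, scaled 0.33), a call lost without DKO1, DKO3 or WT3 (largest adjusted p = 0.0887).

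Calls among junction, polarity and ectodysplasin pathway genes of the epithelium were all rises, with most members not called. Over all genes tested 6.61% rose. Of 18 claudin and tight junction genes 3 rose. Cldn1, which seals epidermal tight junctions, had 21.3, 20.7 and 21.4 RPKM in the double knockout, against 10.6, 11.6 and 10.3 RPKM in wild type (0.90 ± 0.07, adjusted p = 0.000116, scaled 0.63). Cldn6, a claudin of embryonic epithelia, rose too (0.72, scaled 0.44). In the ectodysplasin and NF-kB pathway, which governs the shape of teeth and hair, 4 of 15 rose and 0 fell: the receptors Tnfrsf19 and Edar, the adaptor Edaradd and the inhibitor Nfkbia, itself a target of NF-kB. Tnfrsf19 had 56.2, 65.0 and 58.5 RPKM in the double knockout, against 33.4, 34.8 and 33.3 RPKM in wild type (0.81 ± 0.07, adjusted p = 0.000258, scaled 0.52). Edar had 3.84, 4.83 and 4.10 RPKM in the double knockout, against 2.33, 2.17 and 2.77 RPKM in wild type (0.62, adjusted p = 0.00201, scaled 0.40). Edar kept its call only without WT3 (largest adjusted p = 0.0800). Nfkbia lost it without DKO3 or WT3 (largest adjusted p = 0.0687) and Edaradd without DKO2 (adjusted p = 0.0501).

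Among 24 Notch pathway genes 2 rose and 1 fell. For this list and those that follow, 6.61% of all genes tested rose and 3.07% fell. The target Hey2 had 2.66, 3.45 and 3.46 RPKM in the double knockout, against 1.26, 1.38 and 1.40 RPKM in wild type (0.83 ± 0.10, adjusted p = 0.000761, scaled 0.64). Lfng, a glycosyltransferase that modifies Notch receptors, rose too (0.64, scaled 0.37), and Notch3 fell (-0.25, scaled -0.52), a call lost without DKO1, DKO3, WT2 or WT3 (largest adjusted p = 0.103). Of 28 polarity genes 3 rose, the planar polarity gene Vangl2 (0.56, scaled 0.29), the ligand Wnt5a (0.58, scaled 0.30) and the apical Pard6b (0.57, scaled 0.40). Their calls were lost with each library left out other than WT1 and WT3 for Vangl2, WT2 for Wnt5a and DKO2 for Pard6b (largest adjusted p = 0.136). Of 25 Hippo pathway genes 1 rose and 3 fell, with the secreted targets Ccn1 and Ccn2 on opposite sides. Ccn1 had 10.2, 11.7 and 10.9 RPKM in the double knockout and 13.1, 15.4 and 13.8 RPKM in wild type (-0.34, adjusted p = 0.00743, scaled -0.61), and Ccn2 20.8, 25.7 and 24.2 RPKM in the double knockout and 14.1, 15.8 and 15.4 RPKM in wild type (0.61, adjusted p = 0.00159, scaled 0.33). Ccn2 did not pass without DKO2, DKO3 or WT3 (largest adjusted p = 0.0731). Of 57 semaphorin, ephrin, slit and netrin genes 5 rose and 6 fell (2 to 9 and 1 to 7 with a library left out), the rises near the 6.61% of all genes. Calls that held with each library left out were those of the guidance ligand Slit2 (0.71, scaled 0.45) and the receptor Epha2 (0.62, scaled 0.35) upward and Sema3d (-0.42, scaled -0.68) downward.

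The genes ranked 11 to 30 by fold change among the rises included late epidermal genes beside signalling and transport genes. Klk7, a protease that cuts the bonds between corneocytes, had 4.16, 1.29 and 3.32 RPKM in the double knockout, against 0.0676, 0.0932 and 0.132 RPKM in wild type (1.76 ± 0.25, adjusted p = 0.00157, scaled 1.65). Its relative Klk14 had 12.1, 2.93 and 10.8 RPKM in the double knockout, against 0.625, 0.580 and 0.646 RPKM in wild type (2.39 ± 0.38, adjusted p = 0.00201, scaled 2.21). Cdsn encodes corneodesmosin, the protein that KLK enzymes cleave, and had 22.6, 11.2 and 20.4 RPKM in the double knockout, against 3.91, 2.68 and 3.59 RPKM in wild type (2.07 ± 0.22, adjusted p = 0.000524, scaled 1.82). DKO2 was the lowest double knockout library for each of them, and WT2 the lowest wild-type library for Cdsn. Lce3c, a late cornified envelope gene, had 9.02, 1.13 and 7.06 RPKM in the double knockout and was listed at 0 in all 3 wild-type libraries, and Lce3a likewise (31.7, 5.44 and 27.6 RPKM in the double knockout). LCE3 genes are close copies of each other, so their reads may be shared.

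The other ranks held Cyp26c1, Cysrt1, the protease Asprv1, Cnfn (cornifelin), Krt6b, Plac8, Odam, the metallothionein Mt4, Pglyrp1, Ly6g6c, Krt78, Csta1, Sp6, S100a7a, Shh and the zinc transporter Slc39a8, with log2 fold changes between 1.71 and 2.42. Of these, Cysrt1, Asprv1, Cnfn, Krt78, Csta1, S100a7a, and with them Klk14 and Lce3c, lost their call without DKO3 or WT3 and in part without others (largest adjusted p = 0.121). The list of 14 cornifying genes had 6 that rose and 0 that fell, with 3 rising without DKO3, WT2 or WT3 and 11 without DKO2. Its sums were 5451, 2666 and 4962 RPKM in the double knockout, against 3188, 2205 and 2816 RPKM in wild type, so DKO2 lay below 2 wild-type libraries. Of 22 genes of barrier lipids and desquamation 7 rose and 0 fell, and Tgm3, the transglutaminase that cross-links the envelope, had 9.36, 6.61 and 9.34 RPKM in the double knockout, against 3.06, 2.48 and 2.74 RPKM in wild type (1.32, adjusted p = 0.000304, scaled 1.08). Of 19 factors of epithelial differentiation 5 rose, among them Prdm1 (0.81, scaled 0.59) and Ovol1 (0.61, scaled 0.36). Without DKO3 the number was 0, without DKO1 it was 1, without WT2 or WT3 it was 2, and without DKO2 it was 7.

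The corresponding ranks among the falls included muscle genes. Myog, a myogenic transcription factor, had 7.81, 3.87 and 7.31 RPKM in the double knockout, against 19.8, 12.6 and 18.2 RPKM in wild type (-1.31 ± 0.23, adjusted p = 0.00266, scaled -1.57). Actc1, the actin of embryonic muscle, had 72.5, 63.0 and 70.5 RPKM in the double knockout, against 221, 102 and 186 RPKM in wild type (-1.22 ± 0.24, adjusted p = 0.00358, scaled -1.51). Tnnt1, Mybph, Actn2, Chrng, Neb and Mymx fell with them. The 15 muscle markers, of which 8 fell, summed to 861, 988 and 992 RPKM in the double knockout, against 2038, 829 and 1635 RPKM in wild type, so WT2 lay below every double knockout library. Without that library all 15 fell, and without any other library 6 did.

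Skeletal matrix genes were also among the falls, and cartilage markers moved both ways. Of 8 cartilage genes tested 3 rose and 3 fell. Col2a1, the collagen of cartilage, had 8.89, 12.3 and 10.6 RPKM in the double knockout, against 32.7, 34.6 and 34.5 RPKM in wild type (-1.60 ± 0.10, adjusted p = 5.04e-05, scaled -1.88). Col11a1, its partner in fibrils, fell (-0.86, scaled -1.14). Matn4, a matrilin, had 26.2, 34.4 and 30.7 RPKM in the double knockout, against 11.2, 13.2 and 10.7 RPKM in wild type (1.30 ± 0.11, adjusted p = 0.000187, scaled 1.03). Sox9, the transcription factor of cartilage that is also present in dental epithelium, rose (0.96, scaled 0.70), as did Col9a3 (0.83, scaled 0.57). The minor fibrillar collagens Col24a1 (-1.35, scaled -1.57) and Col22a1 (-1.37, scaled -1.61) and the collagen receptor Itga10 (-1.15, scaled -1.38) fell. Of 9 odontoblast and bone genes 4 fell and 0 rose, and Ibsp, a bone matrix protein gene, had 120, 221 and 149 RPKM in the double knockout, against 406, 335 and 371 RPKM in wild type (-1.22 ± 0.19, adjusted p = 0.00195, scaled -1.51). None of 14 endothelial or 13 macrophage markers was called in limma. Egfl7, the endothelial marker with the highest level, had 30.1, 33.9 and 33.0 RPKM in the double knockout and 29.5, 30.5 and 28.9 RPKM in wild type. Lyz2, the highest macrophage marker, had 50.7, 59.9 and 61.4 RPKM in the double knockout and 56.0, 53.7 and 47.5 RPKM in wild type.

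In the matrix between the layers, 5 of 39 integrin and basement membrane genes rose and 3 fell, with integrins and basement membrane components on both sides (6.61% and 3.07% of all genes). Itga2, a collagen-binding integrin subunit of epithelia, had 5.64, 6.27 and 6.34 RPKM in the double knockout, against 2.49, 2.92 and 2.90 RPKM in wild type (0.91 ± 0.08, adjusted p = 0.000220, scaled 0.68). Itga6, of the laminin receptor in hemidesmosomes, rose (0.60, scaled 0.32), a call lost without DKO3 or WT3 (largest adjusted p = 0.0680). Nid2, a nidogen that links laminin and collagen networks, had 12.8, 11.2 and 13.0 RPKM in the double knockout, against 16.3, 18.9 and 16.97 RPKM in wild type (-0.46 ± 0.08, adjusted p = 0.00260, scaled -0.73). The laminin gene Lamc3 rose (0.84, scaled 0.63), a call lost without DKO3 or WT3 (largest adjusted p = 0.0720). The integrin gene Itga7 fell (-0.37, scaled -0.60), a call kept only without WT2 (largest adjusted p = 0.140). With a library left out 1 to 5 genes of the list rose and 1 to 3 fell. Among 24 genes of heparan sulfate 3 rose and 1 fell (1 to 3 and 1 to 2 with a library left out). Sulf1, an extracellular enzyme that removes 6-O-sulfates, had 22.6, 26.0 and 24.6 RPKM in the double knockout, against 11.1, 12.7 and 10.6 RPKM in wild type (1.03 ± 0.08, adjusted p = 0.000162, scaled 0.76). Hs6st2, an enzyme that adds 6-O-sulfates, had 5.36, 5.33 and 5.64 RPKM in the double knockout, against 6.68, 6.90 and 6.33 RPKM in wild type (-0.24 ± 0.07, adjusted p = 0.0120, scaled -0.49). Hs6st1, of the same enzyme family and higher in RPKM, had 29.3, 32.6 and 32.3 RPKM in the double knockout, against 19.1, 22.6 and 22.4 RPKM in wild type, and was not called (0.54, scaled 0.26 with adjusted p = 0.0550). The 3-O-sulfotransferase genes Hs3st3b1 (0.70, scaled 0.48) and Hs3st6 (0.92, scaled 0.67) rose, calls lost without DKO3 for Hs3st3b1 (adjusted p = 0.0513) and kept only without WT2 for Hs3st6 (largest adjusted p = 0.160). Of 36 matrix proteases and inhibitors 3 rose and 4 fell (0 to 2 and 2 to 3 with a library left out), the rises near the 6.61% of all genes. Only the falls of Adamts10 (-0.40, scaled -0.67) and Adamts14 (-0.36, scaled -0.56) held with each library left out.

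Ribosomal protein and respiratory chain genes had 0 calls in both fits, while the cell cycle and DNA replication lists had some. Over all genes tested 6.61% rose and 3.07% fell. All 79 cytosolic ribosomal protein genes were past the threshold upward on deposited values, as were 56.3% of all genes tested, with a median of 0.41, and in both fits limma called 0 (scaled median 0.12). With WT1 left out 43 of them rose, and with any other library left out 0 did. The 76 nuclear genes of the respiratory chain had a median of 0.28 (scaled -0.01) and the 13 mitochondrially encoded ones 0.04 (scaled -0.25), with 0 calls in each. Of 18 p53 targets and cell cycle inhibitors 4 rose and 1 fell (2 to 4 and 0 to 1 with a library left out). Cdkn1b, which encodes p27, had 24.3, 27.7 and 26.2 RPKM in the double knockout, against 16.1, 16.9 and 16.5 RPKM in wild type (0.63 ± 0.07, adjusted p = 0.000524, scaled 0.35). Cdkn2b rose too (0.60, scaled 0.41), a call lost without DKO1, DKO3, WT1 or WT2 (largest adjusted p = 0.103), Cdkn1c fell as given above, and Cdkn1a, Cdkn2c and Cdkn2d were not called. Of 35 DNA replication genes 5 rose and 0 fell, with 0 to 4 calls when a library was left out, and Fen1, a flap endonuclease, had 18.9, 19.3 and 18.6 RPKM in the double knockout, against 12.7, 12.9 and 11.9 RPKM in wild type (0.56, adjusted p = 0.000585, scaled 0.28). Fen1 was not called without WT3 (adjusted p = 0.0602).

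Among 30 genes of glycolysis and hypoxia 4 rose and 1 fell (6.61% and 3.07% of all genes). Ankrd37 and Ddit4, targets of hypoxia-inducible factor, rose (1.19 and 0.80, scaled 0.95 and 0.51), and P4ha2, a prolyl hydroxylase that modifies collagen, fell (-0.42, scaled -0.70). Of 19 interferon and antigen presentation genes 5 rose, of which Isg15, a ubiquitin-like protein gene, had 2.27, 4.03 and 2.84 RPKM in the double knockout, against 1.13, 1.16 and 0.865 RPKM in wild type (0.96 ± 0.15, adjusted p = 0.00186, scaled 0.78). Without DKO3 or WT3 only 1 gene of the list was called, and Isg15 had an adjusted p of 0.0505 without WT3. Lists with 1 call or none in a direction, such as cholesterol synthesis, chromatin remodelling, heat shock and the circadian clock, are drawn with the rest.

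**Figure D4:**
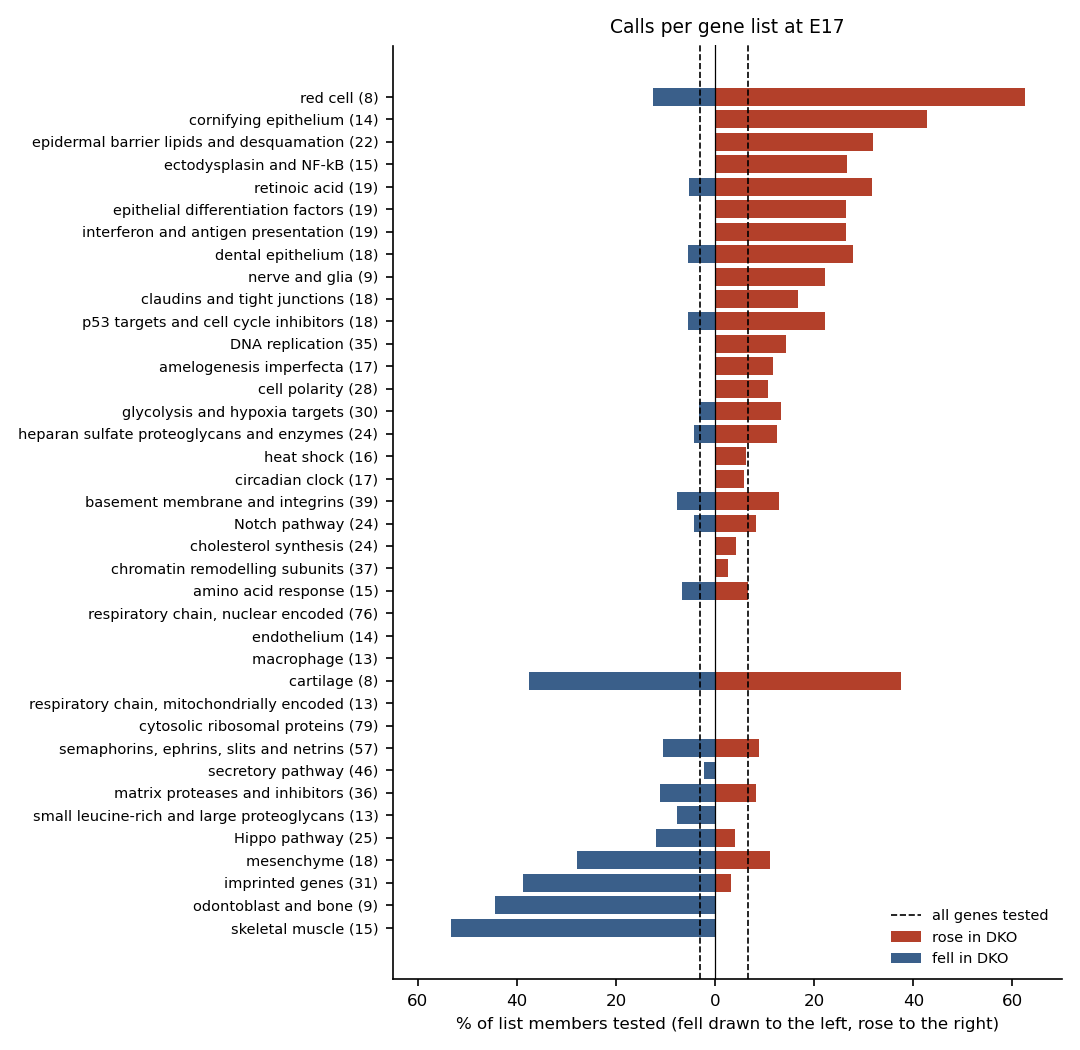
Percent of the tested members of each list that rose (to the right) or fell (to the left) in the double knockout, for the 38 lists with at least 8 members tested (number tested in brackets); dashed lines mark 6.61% and 3.07%, the same shares over all genes tested. Muscle, bone and imprinted genes reach farthest to the left, and red cell, cornifying and barrier genes are among those farthest to the right.

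Libraries differed within and between the groups in blood and in sex-linked genes. Adult globin genes rose, Hba-a1 with 2264, 4740 and 2962 RPKM in the double knockout, against 1181, 1410 and 1135 RPKM in wild type (1.36 ± 0.24, adjusted p = 0.00263, scaled 1.07), while the embryonic globin Hbb-y fell (-1.25 ± 0.15, adjusted p = 0.000885, scaled -1.43). Without DKO3 or WT3 no red cell gene rose, whereas Hbb-y fell with each library left out. Hba-a1 has an almost identical copy, so its reads cannot be assigned with certainty. Xist, the RNA of the inactive X chromosome, had 37.9, 13.3 and 34.7 RPKM in the double knockout, against 52.6, 53.6 and 62.1 RPKM in wild type (-1.07 ± 0.32, adjusted p = 0.0186, scaled -1.35), a call lost without DKO3 or any wild-type library (largest adjusted p = 0.145). Y-linked Uty had 2.65, 5.32 and 3.45 RPKM in the double knockout, against 1.55, 2.07 and 1.49 RPKM in wild type, and was not called. The Y-linked genes Ddx3y, Eif2s3y and Kdm5d were also higher in the double knockout (0.80, 0.78 and 0.76 on deposited values) and not called. For Xist and each of these Y-linked genes the groups did not overlap. Xist and Uty were present in every library, and DKO2 had the lowest Xist and the highest Uty. The part of the sex of the animals in the E17 differences was not tested.

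The effect of genotype at E17 was set against that at P5, when ameloblasts secrete enamel. Each stage was fitted in its own table, of 110159 transcripts at E17 and 38288 at P5, so only effects within a stage are set side by side, and 11049 genes were tested at both. The effect differed in both fits for 3324 genes, higher at E17 for 27.5% and lower for 2.61%. Scaling lowered the effects of the genes named for this comparison at E17 and raised them at P5. The log2 fold change of Shh was 1.73 on deposited and 1.45 on scaled values at E17, and -1.25 and -1.03 at P5. The part of such library-wide shifts in these counts was not tested. At P5, 6.82% of these genes rose and 31.3% fell. Of the 908 genes that rose at E17, 737 were also tested at P5, where 84 (11.4%) of them rose and 194 (26.3%) fell. Of the 422 genes that fell at E17, only 170 were also tested at P5, where 77 (45.3%) of them fell and 16 (9.41%) rose. Ascl5, which encodes a basic helix-loop-helix factor of ameloblasts, had 15.6, 18.3 and 18.1 RPKM in the double knockout, against 5.79, 5.11 and 6.37 RPKM in wild type at E17 (1.44 ± 0.09, adjusted p = 5.04e-05, scaled 1.18). At P5 the same gene had 2.45, 2.93 and 2.34 RPKM in the double knockout, against 20.1, 15.7 and 18.2 RPKM in wild type (scaled -2.22). The difference between stages was 3.40 ± 0.12 on scaled values (adjusted p = 2.66e-11).

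Cyp26a1 and Crabp1 of the retinoic acid pathway also changed sides. At P5 Cyp26a1 had 42.5, 48.7 and 56.1 RPKM in the double knockout, against 178, 81.3 and 137 RPKM in wild type, and its effect was 2.23 ± 0.23 higher at E17 than at P5 (adjusted p = 4.13e-05). At P5 Crabp1 had 8.14, 10.2 and 3.99 RPKM in the double knockout, against 23.0, 39.5 and 27.0 RPKM in wild type, with a difference of 2.08 ± 0.30 (adjusted p = 0.000407). Meg3, which fell at E17, was not called at P5, where it had 11.3, 11.6 and 17.3 RPKM in the double knockout and 13.6, 11.5 and 12.3 RPKM in wild type. Its effect was lower at E17 by 1.54 on the log2 scale (-1.54 ± 0.14, adjusted p = 7.78e-06). Ambn, which encodes the enamel matrix protein ameloblastin, had 3.55, 4.78 and 4.26 RPKM in the double knockout and 4.62, 6.95 and 5.40 RPKM in wild type at E17, with overlapping groups. At P5 it had 34520, 34640 and 31390 RPKM in the double knockout, against 15160, 18090 and 15040 RPKM in wild type. The E17 call of Ambn, a fall (-0.35, scaled -0.59), was lost without DKO1, DKO3, WT2 or WT3 (largest adjusted p = 0.147).

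**Figure D5:**
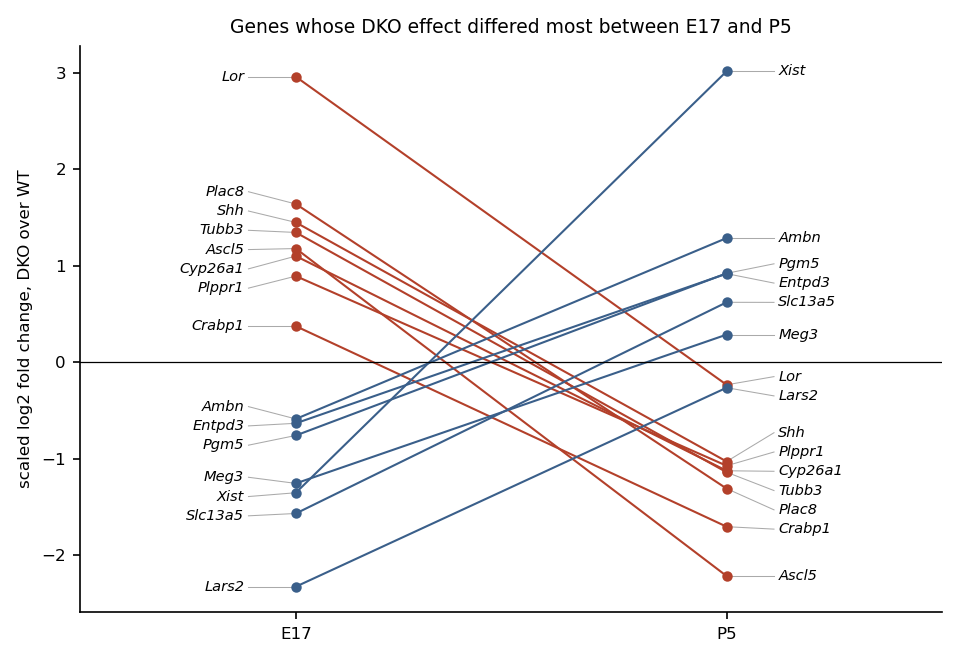
Scaled log2 fold change, double knockout over wild type, at E17 and at P5 for 15 of the 16 genes called at E17 whose effect differed most between the stages (Hmgn2, at -7.68 and -4.04, is off the scale), red where the effect was higher at E17 and blue where it was lower. Ascl5 stands at 1.18 at E17 and -2.22 at P5, and Meg3 at -1.26 and 0.29.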

How the data were processed

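Total RNA from molar epithelium was sequenced after rRNA depletion. The authors' tables list 1 level per transcript and library; their values behave as RPKM, the deposited unit not being stated elsewhere, since low values of a transcript times its length fall on whole reads in 85.5% to 88.0% of cases (tolerance 0.1 read). Per the submitters' processing notes Partek and mm10 were used; the sources used here name no aligner, annotation or strand handling, so overlapping and antisense genes cannot be told apart. Transcript types and positions came from GENCODE M21 by transcript name (107411 of 110159 matched). From these files, RPKM was summed per gene symbol, genes with at least 1 RPKM in 3 of 6 libraries were kept, and log2(RPKM + 1) was fitted with limma 3.58.1 (R 4.3.3, empirical Bayes with trend, two-sided), deposited and upper-quartile scaled. Fold changes of low genes are understated on this scale. Transcript shares were fitted as log2 of the transcript over the rest of its gene, each plus 1 RPKM, for genes of at least 5 RPKM in both groups. The E17 and P5 effects were compared by the difference of log2 fold changes over their joint standard error. On simulated data for the E17 comparison of 13728 genes, 99 of 100 genes changed by 0.5 (log2) and 100 of 100 changed by 1 were recovered, with 11 false calls. The simulation had independent noise, and neither the shift of most genes between genotypes nor the library-wide deviations seen here. Its counts therefore check the procedure and do not measure the errors of the real comparison. The members and lists were chosen with earlier results of these data known. Genes were named by rule: the targeted genes, ranks 11 to 30 by fold change in each direction, the 12 largest absolute differences, up to 4 called members per list by adjusted p, genes at 0 in 1 genotype, and the 8 largest differences from P5 per direction; predicted genes were counted only. Alternatives were other scalings, pseudocount 0.1, other filters, limma without trend, a replicate block and each library left out. The other 6 samples of the series were not analysed here. Some members that count in the lists are not reported by name here.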

Additional observations from a re-analysis of the deposited data

Results flagged for a closer look

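The effect of genotype differed between E17 and P5 for 3324 of 11049 genes by a test of the difference itself. Every value below is the scaled log2 fold change at E17 minus that at P5, for the genes called at E17 with the largest differences. It was positive for Ascl5 (3.40), the cornified envelope gene Lor (3.20), Plac8 (2.95), the neuronal tubulin Tubb3 (2.49), the Hedgehog ligand Shh (2.48), Cyp26a1 (2.23), Crabp1 (2.08) and Plppr1 (1.97). Shh had 63.6, 68.6 and 67.6 RPKM in the double knockout, against 21.7, 15.7 and 21.3 RPKM in wild type at E17. At P5 it had 44.2, 46.4 and 47.7 RPKM in the double knockout, against 138, 86.5 and 115 RPKM in wild type. The difference was negative for Xist (-4.37), Hmgn2 (-3.64), the citrate transporter Slc13a5 (-2.19), Lars2 (-2.06), Ambn (-1.88), Pgm5 (-1.68), the ectonucleotidase Entpd3 (-1.55) and Meg3 (-1.54). For Hmgn2, the P5 level was 9.05, 5.44 and 10.4 RPKM in the double knockout, against 183, 166 and 166 RPKM in wild type, so the smaller fold at P5 goes with a higher remaining level. For Xist, P5 libraries of the double knockout had 29.0, 32.6 and 1.06 RPKM, against 0.422, 0.770 and 1.06 RPKM in wild type, with 1 double knockout library at a wild-type level. The part of the sex of the animals in this difference was not tested.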

How the results depend on the processing

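Calling on deposited values alone gave 7735 rises, and on scaled values alone 1103 falls. A minimum absolute log2 fold change of 1 left 125 rises and 85 falls, no filter on low values 533 and 271, and a filter of 5 RPKM 213 falls. Scaling to reads on transcripts other than rRNA, an alternative added after seeing the data, gave 1709 rises. Leaving out a library gave 324 to 1099 rises and 234 to 431 falls, with the lowest counts without DKO3 or WT3. The calls of transcript shares, 1 in each direction, became 0 and 0 with pseudocount 0.1, 15 higher and 11 lower at a minimum of 20 RPKM, 6 and 2 with no minimum, 0 and 0 with a replicate block, and 0 without any 1 library. The effects at E17 and P5 differed for 8916 genes on deposited values alone and for 2863 to 3419 with a library left out. On scaled values alone the signs of Egfl7 (-0.16), Lyz2 (-0.16), Cox4i1 (-0.030) and mt-Co1 (-0.22), none of them called, turned. Of 166 named genes and transcripts, 80 lost their call without a filter, 9 without the trend, 4 with pseudocount 0.1, 19 with a replicate block, 29 to 68 with a library left out (68 without DKO3, 65 without WT3) and 0 with the other scalings. Deviations of same-numbered libraries from their group means had correlations of -0.0111, 0.222 and -0.0151, and those of the other pairs -0.188 to 0.208. With 3 libraries in a group these values cannot settle whether the numbers pair libraries. A replicate block gave 721 rises, 457 falls and 3106 differences from P5. The causes of these shifts were not tested. Depth sets 1 read at up to 0.0361 RPKM on 1 kb, and genes under 1 RPKM in 4 or more libraries were not tested.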

Other observations

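A few genes outside the groups above changed by similar amounts. The zinc transporter Slc39a8 had 40.3, 47.9 and 44.0 RPKM in the double knockout, against 12.6, 12.2 and 13.4 RPKM in wild type (1.71 ± 0.08, adjusted p = 8.96e-06 in limma, scaled 1.43). Plac8, a small cysteine-rich protein gene, had 24.9, 17.4 and 23.3 RPKM in the double knockout, against 5.99, 4.32 and 5.002 RPKM in wild type (1.90, adjusted p = 0.000116, scaled 1.64). Of 9 nerve and glia markers tested 2 rose, Tubb3 and Stmn2, while 0 fell and 7 were not called. The median log2 fold change of the list was 0.31 (scaled 0.06). Tubb3 had 22.9, 25.8 and 24.1 RPKM in the double knockout, against 7.30, 7.39 and 7.07 RPKM in wild type (1.61 ± 0.07, adjusted p = 5.08e-06, scaled 1.34), and Stmn2 had 6.01, 5.55 and 6.36 RPKM in the double knockout, against 1.41, 1.12 and 1.12 RPKM in wild type. Slc13a5, the citrate transporter, had 2.42, 4.35 and 3.38 RPKM in the double knockout, against 9.82, 9.68 and 9.89 RPKM in wild type (-1.32, scaled -1.57). Of 13 small leucine-rich and large proteoglycans, Fmod, a collagen-binding proteoglycan gene, was the 1 called, at 12.9, 11.7 and 13.1 RPKM in the double knockout, against 14.7, 16.8 and 15.6 RPKM in wild type (-0.30, scaled -0.57).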
